A study of Mus musculus with 6 samples.

Results

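The genes of the urea cycle and of glutamine turnover were examined in whole liver of NZO and BKS mice. The set of 10 was given by name: 8 genes that are known to be most active around the portal vein (Cps1, Otc, Ass1, Asl, Arg1, Nags, Slc25a15 and Gls2) and 2 that mark the last hepatocytes before the central vein (Glul and Oat). All probe sets whose array annotation gives one of these symbols alone were taken, which gave 13 of the 45101 probe sets on the array. They covered 9 of the 10 genes, and Gls2 was not analysed here.

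RNA came from male mice aged 18 weeks with free access to ordinary chow. There were 3 arrays of New Zealand Obese (NZO) mice, an inbred strain that becomes obese and diabetic, and 3 of C57BL/KS (BKS) mice, titled as wild type, the comparison strain. The series text calls the mice littermates without saying which belong together, and the labels do not state that each array is a separate animal, so p-values measure the spread between these arrays. Values are log2 expression after RMA, in which a difference of 1 is a doubling. Hepatocyte markers such as Alb and Ttr were bright in both strains, as the tissue label says. In such bulk RNA, fewer cells of a type and less RNA per cell cannot be told apart.

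The urea cycle turns ammonia, which is toxic to the brain, into urea that the kidney can excrete. Its first steps lie inside mitochondria, where Nags makes the activator of Cps1, Cps1 fixes ammonia and Otc joins the product to ornithine. Ass1, Asl and Arg1 complete the cycle in the cytosol, and the carrier Slc25a15 returns ornithine to the mitochondrion. Ammonia that escapes this periportal system is caught by Glul, the glutamine synthetase of the pericentral cells, while Oat converts ornithine towards glutamate.

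None of the 9 measured genes passed the strain test at an adjusted p below 0.05 (limma, adjusted over 18193 genes), and 1, Ass1, had an unadjusted p below 0.05. Over all genes 0.742% passed. The log2 fold changes, NZO minus BKS, ran from -0.51 for Glul to 1.07 for Ass1, with 5 of 9 above 0 and a median of 0.01, against a median of -0.03 over all genes. Of the 13 probe sets 0 passed either, where 0.424% of all probe sets did, and 4 had an unadjusted p below 0.05. These were those of Ass1, 1420966_at of Slc25a15, 1425540_at of Otc and 1426235_a_at of Glul, with adjusted p from limma of 0.311, 0.0877, 0.302 and 0.416.

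A single array weighed on nearly all of these values. NZO replicate 1 lay below all BKS arrays in 8 of the 9 genes, the exception being Ass1, while NZO replicates 2 and 3 both lay above all BKS arrays in 7 genes. In 6 genes (Otc, Asl, Arg1, Nags, Slc25a15 and Oat) both held at once. Over all genes NZO replicate 1 was below all BKS arrays in 47.0%, NZO replicates 2 and 3 were both above them in 16.9%, and both held in 5.63%. The low values of NZO replicate 1 were shared by bright genes in general: of the 428 genes with a mean of at least 12, 95.6% were below all BKS arrays on it, 31.1% were above them on both NZO replicates 2 and 3, and 27.8% did both. Their median difference from the BKS mean was -0.94. On NZO replicates 2 and 3 the same median was 0.05 and 0.02. The 99th percentile of all probe sets was 11.6 on NZO replicate 1 and between 12.5 and 12.7 on the other 5 arrays. This array and BKS replicate 1, the 2 arrays titled number 1, also had the lowest spiked-in hybridization controls (8.45 and 9.68, against 10.6 to 11.8 on the others). Results are therefore given with and without these arrays. Leaving them out sets NZO replicates 2 and 3 against the 2 arrays with the highest 18S ribosomal RNA signal: 6.14 and 5.38 in NZO replicates 2 and 3, against 11.92 and 9.47 in BKS replicates 2 and 3. On the number 1 arrays it was 5.11 in NZO and 4.93 in BKS. The part of this signal in the results was not tested.

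**Figure D1:**
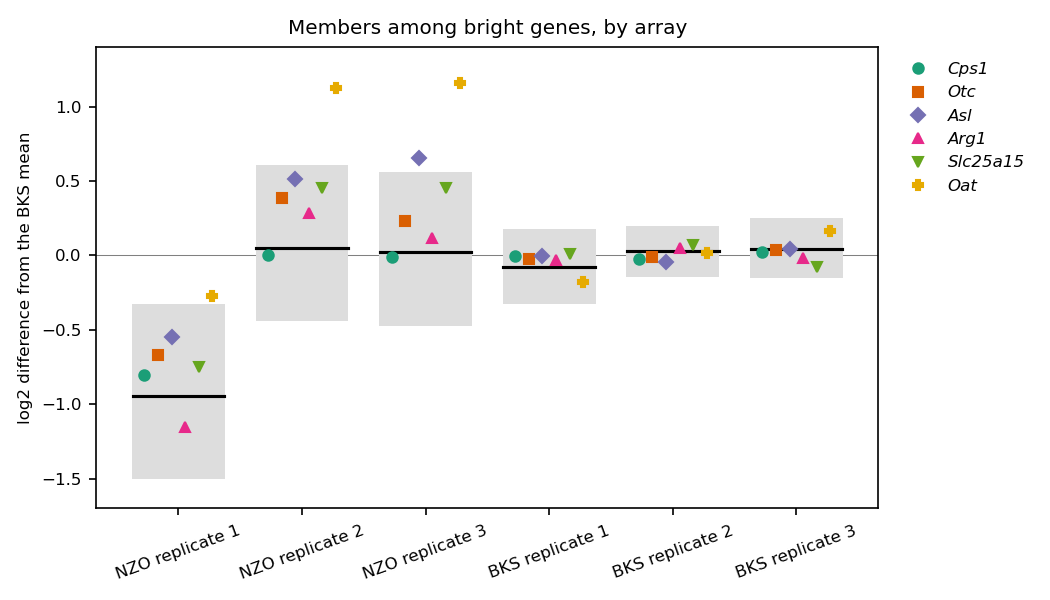
Log2 difference of each array from the BKS mean for the 6 members with a mean of at least 12 (symbols), with the median (line) and the 5th to 95th percentile (grey) of the 428 genes that bright. On NZO replicate 1 the grey median lies at -0.94 and the members lie between -1.15 and -0.27; on NZO replicates 2 and 3 Oat lies at 1.12 and 1.16, above the grey range.

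Among the mitochondrial steps, Cps1 was alike on 5 of the 6 arrays. Cps1, the entry enzyme of the cycle, stood at 13.10, 13.90 and 13.89 in NZO replicates 1 to 3, against 13.90, 13.88 and 13.93 in BKS replicates 1 to 3. Only NZO replicate 1 was low, and the log2 fold change was -0.27 (95% interval -0.83 to 0.29, adjusted p = 0.739 by limma). Without both number 1 arrays it was -0.01 (interval -0.37 to 0.35, adjusted p = 0.986).

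Nags, whose product switches Cps1 on, stood at 9.09, 10.50 and 10.44 in NZO replicates 1 to 3 and at 9.72, 10.01 and 10.26 in BKS replicates 1 to 3. The NZO arrays spread over both sides of the BKS arrays. Its log2 fold change was 0.01 (interval -0.89 to 0.91, adjusted p = 0.997 by limma), and 0.33 without the number 1 arrays (interval -0.06 to 0.72, adjusted p = 0.317).

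Otc, which forms citrulline and is encoded on the X chromosome, had 3 probe sets. The one with the highest mean read 11.89, 12.94 and 12.79 in NZO replicates 1 to 3, against 12.53, 12.55 and 12.59 in BKS replicates 1 to 3 (log2 fold change -0.02, adjusted p = 0.991 by limma over all genes). NZO replicates 2 and 3 were above and NZO replicate 1 below the narrow BKS range. The probe set 1425540_at read 8.09, 8.18 and 7.96 in NZO, against 8.37, 8.66 and 8.86 in BKS. Here all NZO arrays lay below all BKS arrays, as in 8.49% of probe sets, with a log2 fold change of -0.56 (interval -0.94 to -0.17, adjusted p = 0.302 by limma over all probe sets). The remaining one, 1436615_a_at, gave -0.36 (interval -1.22 to 0.50, adjusted p = 0.822 over all probe sets). Without the number 1 arrays the first gave 0.30 and 1425540_at gave -0.69, so these probe sets had opposite signs there and neither passed (adjusted p = 0.385 and 0.0915 over all probe sets).

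Slc25a15, the ornithine carrier, gave the largest difference of any member probe set. Its probe set 1420966_at read 9.29, 10.53 and 9.58 in NZO replicates 1 to 3, against 7.83, 7.02 and 7.97 in BKS replicates 1 to 3. All NZO arrays were above all BKS arrays, NZO replicate 1 included, as in 6.83% of probe sets. The log2 fold change was 2.19 (4.58-fold, standard error 0.38, interval 1.29 to 3.10), and its adjusted p of 0.0877 (limma, over all probe sets) missed the threshold. It passed in 6 of 13 alternatives. Without the number 1 arrays it was 2.56 (adjusted p = 0.0247, where 2.65% of probe sets passed), and with them as a block the adjusted p was 0.0282 (2.97% passed). The adjusted p was 0.0159 with repeated quantile normalization (1.34% passed) and 0.0207 with cyclic loess (1.30%). It was 0.0254 with array weights (1.84%) and 0.0231 with a robust variance trend (0.828%). With 1 array left out it missed the threshold each time.

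The brighter probe set of the same gene, 1420967_at, did not show this. It read 11.73, 12.93 and 12.94 in NZO replicates 1 to 3 and 12.49, 12.55 and 12.40 in BKS replicates 1 to 3, with a log2 fold change of 0.05 (interval -0.71 to 0.82, adjusted p = 0.972 by limma over all genes). Without the number 1 arrays it reached 0.46 (interval 0.09 to 0.82, adjusted p = 0.156). The annotation lists the same source sequence for both probe sets and does not say which part of the transcript each covers. A measure of RNA or cDNA truncation, the 3′ minus 5′ signal, differed by strain for beta-actin, with 1.29, 1.34 and 1.39 in NZO, against 1.72, 2.33 and 1.92 in BKS. For Gapdh it was -0.04, 0.11 and 0.14 in NZO, against 0.77, 0.98 and 0.45 in BKS. The same measure for pyruvate carboxylase was 1.91, 4.03 and 4.27 in NZO, against 4.02, 4.62 and 4.85 in BKS. Beta-actin and Gapdh did not overlap between strains, while pyruvate carboxylase did and was lowest on NZO replicate 1. Their part in the gap between probe sets was not tested.

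**Figure D2:**
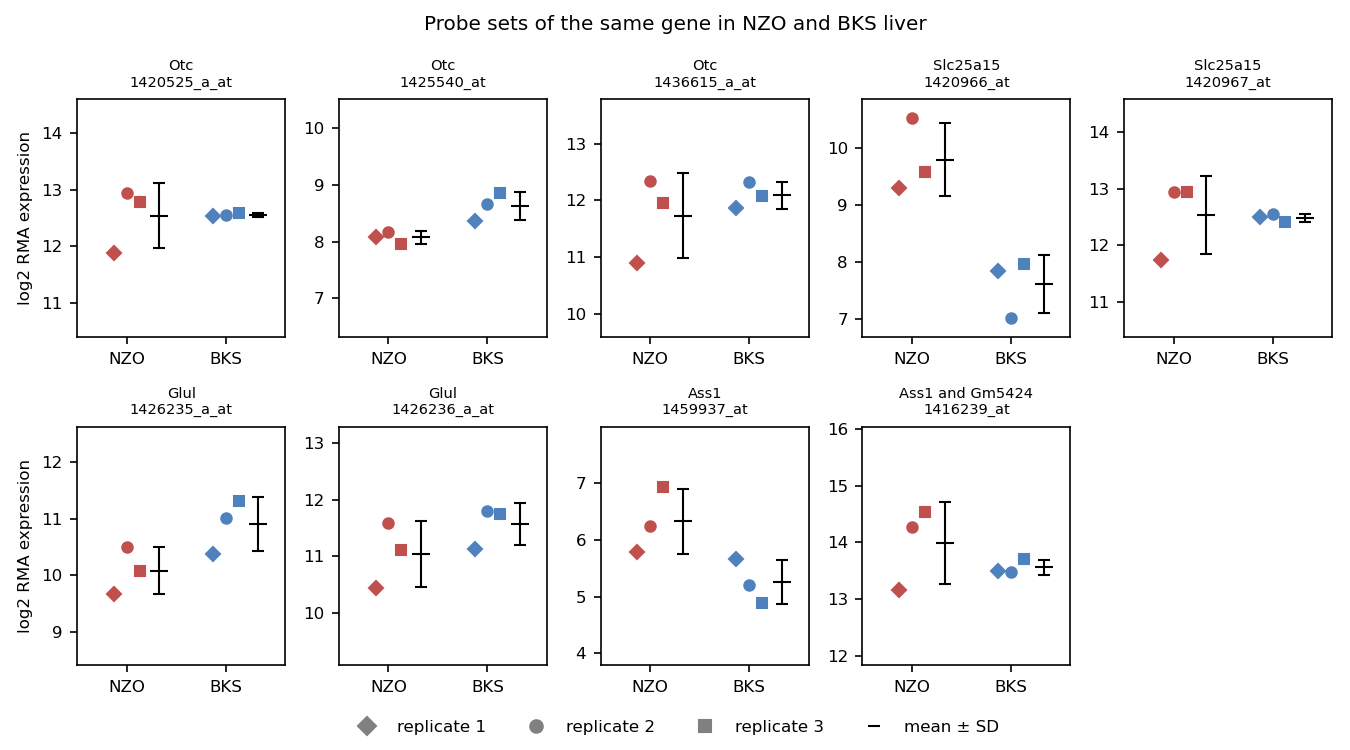
Log2 RMA expression of each probe set of Otc, Slc25a15, Glul and Ass1, and of the probe set annotated to both Ass1 and Gm5424, in NZO and BKS replicates, with mean ± SD (n = 3 each) and panels of equal height. Slc25a15 1420966_at separates the strains by 2.19, while 1420967_at differs by 0.05.

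In the cytosol, Ass1, Asl and Arg1 stood above all BKS arrays on NZO replicates 2 and 3, as 7 of the 9 measured genes did. Ass1, which makes argininosuccinate, had 1 probe set of its own, near the bottom of the scale. It read 5.80, 6.25 and 6.93 in NZO replicates 1 to 3, against 5.66, 5.21 and 4.89 in BKS replicates 1 to 3. All NZO arrays were above all BKS arrays, as in 6.11% of genes (log2 fold change 1.07, 2.11-fold, interval 0.32 to 1.83, adjusted p = 0.257 by limma). It passed without the number 1 arrays (1.54, adjusted p = 0.0151, where 5.01% of genes passed) and with array weights (1.56, adjusted p = 0.00788, where 7.13% passed).

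The bright probe set 1416239_at is annotated to Ass1 together with Gm5424, a near-copy of it, so its signal cannot be assigned to one of them. It read 13.16, 14.28 and 14.53 in NZO replicates 1 to 3, against 13.50, 13.48 and 13.71 in BKS replicates 1 to 3. Again NZO replicate 1 was below and the other NZO arrays above the BKS range. Its log2 fold change was 0.43 (interval -0.39 to 1.25, adjusted p = 0.769 by limma over all probe sets), 0.81 without the number 1 arrays (adjusted p = 0.0666) and 0.82 with cyclic loess (adjusted p = 0.0410, where 1.30% of probe sets passed).

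Asl, which splits argininosuccinate into arginine and fumarate, stood at 11.97, 13.03 and 13.17 in NZO replicates 1 to 3, against 12.51, 12.47 and 12.56 in BKS replicates 1 to 3. NZO replicates 2 and 3 exceeded the BKS mean by 0.51 and 0.65, and NZO replicate 1 was 0.55 below it. The log2 fold change was 0.21 (interval -0.52 to 0.94, adjusted p = 0.866 by limma). Without the number 1 arrays it was 0.58 (interval 0.21 to 0.95, adjusted p = 0.0884), and with repeated quantile normalization 0.51 (adjusted p = 0.111), so it passed in neither.

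Arg1, which releases urea from arginine, lay below all BKS arrays on NZO replicate 1 and above them on the other NZO arrays. It stood at 12.69, 14.13 and 13.96 in NZO replicates 1 to 3, against 13.81, 13.89 and 13.83 in BKS replicates 1 to 3. The log2 fold change was -0.25 (interval -1.10 to 0.60, adjusted p = 0.861 by limma), and 0.18 without the number 1 arrays (interval -0.19 to 0.56, adjusted p = 0.582). The sign changed when the number 1 arrays were left out.

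**Figure D3:**
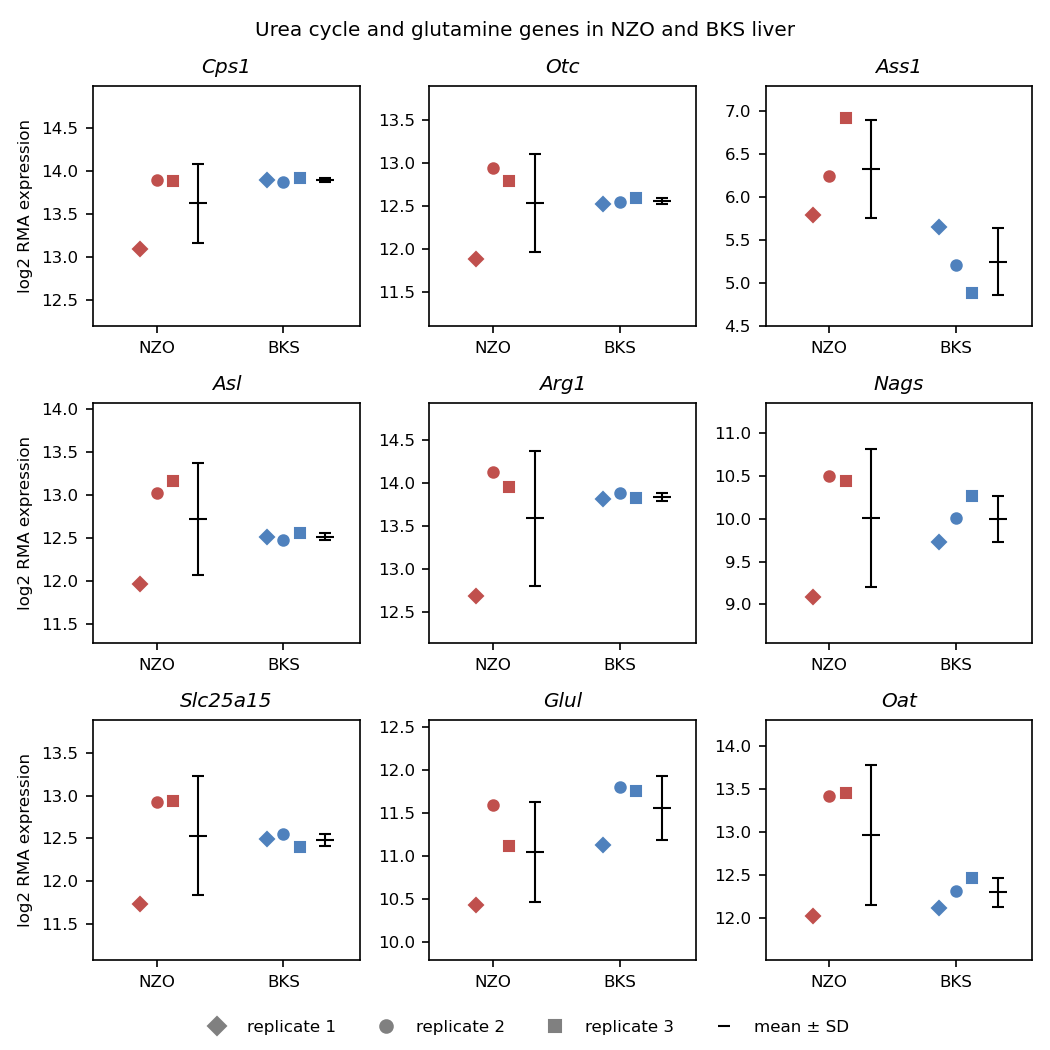
Log2 RMA expression of the 9 measured genes in NZO and BKS liver, 1 symbol per array, with mean ± SD (n = 3 each) and panels of equal height. NZO replicate 1 (diamond) lies below all BKS arrays for every gene but Ass1, and NZO replicates 2 and 3 lie above all BKS arrays for all but Cps1 and Glul.

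The pericentral pair, Oat and Glul, had changes of opposite sign. Oat, the mitochondrial ornithine aminotransferase, stood at 12.03, 13.42 and 13.46 in NZO replicates 1 to 3, against 12.12, 12.31 and 12.46 in BKS replicates 1 to 3. NZO replicates 2 and 3 were above every BKS array, and NZO replicate 1 was just below them. Over all 6 arrays the log2 fold change was 0.67 (1.59-fold, interval -0.22 to 1.56), without a call (adjusted p = 0.574 by limma).

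Oat passed in 5 of 17 alternatives. The log2 fold change was 1.05 without both number 1 arrays (interval 0.68 to 1.42, adjusted p = 0.0125, where 5.01% of genes passed) and 1.14 without NZO replicate 1 alone (adjusted p = 0.0263, where 1.42% passed). It was 0.97 with repeated quantile normalization (adjusted p = 0.0318, where 2.31% passed) and 1.04 with cyclic loess (adjusted p = 0.00838, where 2.36% passed), both of which keep all 6 arrays. After repeated quantile normalization Oat read 12.79, 13.26 and 13.30 in NZO replicates 1 to 3, against 12.07, 12.11 and 12.27 in BKS replicates 1 to 3, without overlap. The share of all genes without overlap after that step was not computed. The fifth alternative in which Oat passed was array weights (0.99, adjusted p = 0.0303, where 7.13% of genes passed). Adjusted over all probe sets, array weights gave no call (0.91, adjusted p = 0.138), which left 4 of 13 alternatives. Between the 2 number 1 arrays alone the difference was -0.09. Among the 428 genes with a mean of at least 12, the change of Oat without the number 1 arrays lay at percentile 98.6. Asl lay at 94.6, Slc25a15 at 92.3, Otc at 85.7, Arg1 at 76.4 and Cps1 at 48.4.

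Glul, glutamine synthetase, was measured by 2 probe sets, both lower on average in NZO. The brighter, 1426236_a_at, read 10.44, 11.59 and 11.12 in NZO replicates 1 to 3, against 11.14, 11.80 and 11.75 in BKS replicates 1 to 3. Its log2 fold change was -0.51 (interval -1.27 to 0.24, adjusted p = 0.614 by limma over all genes and 0.686 over all probe sets). The strains overlapped, since BKS replicate 1 lay below NZO replicate 2. The other, 1426235_a_at, read 9.67, 10.51 and 10.07 in NZO, against 10.38, 11.01 and 11.32 in BKS (log2 fold change -0.82, interval -1.53 to -0.10, adjusted p = 0.416 over all probe sets). It passed in 1 of 13 alternatives, with the number 1 arrays as a block (adjusted p = 0.0496). Both stayed below 0 in every alternative fitted, but the brighter shrank to -0.22 with repeated quantile normalization (interval -0.62 to 0.18) and -0.19 with cyclic loess.

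The start regions of Oat and Glul are shown because these neighbours in the lobule had opposite signs, and that of Slc25a15 because 2 starts are annotated for the gene whose probe sets differed most. Sequences are from RefSeq on build GRCm38.p6, each with 250 bases before and 50 after an annotated start, written 5′ to 3′ along the gene. Capitals mark matches, on either strand, to any of 8 short motifs: the TATA box written as TATAAA, the box known by its letters CCAAT, the GC box as GGGCGG, the half-site of the cAMP response element as TGACG, the C/EBP site as TTNNGCAA, the TCF/LEF site as CTTTGAN, the half-site of nuclear receptors as AGGTCA and that of the glucocorticoid receptor as TGTTCT. TTNNGCAA and CTTTGAN hold N for any base.
Oat, chr7:132576349-132576648, minus strand: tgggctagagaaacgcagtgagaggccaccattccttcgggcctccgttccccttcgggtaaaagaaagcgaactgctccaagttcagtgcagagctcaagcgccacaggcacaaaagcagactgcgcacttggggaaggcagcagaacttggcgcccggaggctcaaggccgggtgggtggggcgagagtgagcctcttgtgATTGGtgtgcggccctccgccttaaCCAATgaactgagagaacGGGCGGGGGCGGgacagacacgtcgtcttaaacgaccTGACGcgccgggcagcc
Glul, chr1:153899679-153899978, plus strand: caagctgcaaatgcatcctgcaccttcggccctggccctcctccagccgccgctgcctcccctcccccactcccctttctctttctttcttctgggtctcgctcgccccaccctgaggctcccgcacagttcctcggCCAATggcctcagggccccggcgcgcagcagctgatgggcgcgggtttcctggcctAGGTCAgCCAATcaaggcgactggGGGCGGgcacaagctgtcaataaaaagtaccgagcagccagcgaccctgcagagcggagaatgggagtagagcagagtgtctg
Slc25a15 first start, chr8:22398572-22398871, minus strand: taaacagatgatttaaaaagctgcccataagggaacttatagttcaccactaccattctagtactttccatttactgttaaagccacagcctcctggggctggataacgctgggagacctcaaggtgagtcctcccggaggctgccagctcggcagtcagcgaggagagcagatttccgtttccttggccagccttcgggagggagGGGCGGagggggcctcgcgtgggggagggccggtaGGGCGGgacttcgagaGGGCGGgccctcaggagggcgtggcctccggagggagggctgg
Slc25a15 second start, chr8:22398228-22398527, minus strand: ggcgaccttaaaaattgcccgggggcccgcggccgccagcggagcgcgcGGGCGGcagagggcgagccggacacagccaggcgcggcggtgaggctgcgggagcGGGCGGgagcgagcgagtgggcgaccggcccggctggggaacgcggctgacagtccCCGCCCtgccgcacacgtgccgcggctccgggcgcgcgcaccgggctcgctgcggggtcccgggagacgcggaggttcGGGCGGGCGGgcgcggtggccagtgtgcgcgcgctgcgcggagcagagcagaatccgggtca

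The Oat window held 2 matches to CCAAT, 2 to GGGCGG that adjoin each other, and 1 to TGACG. The Glul window held 2 matches to CCAAT, 1 to GGGCGG and 1 to AGGTCA. Of all 32851 such windows, 37.4% held CCAAT, 35.7% GGGCGG, 20.8% TGACG and 16.3% AGGTCA. The 2 windows of Slc25a15 held 3 and 5 matches to GGGCGG and none to the other motifs, and the last 2 of the 5 overlap. None of the 4 windows held TATAAA (13.6% of all windows), TTNNGCAA (10.8%), CTTTGAN (16.0%) or TGTTCT (19.0%). G and C made up 61.7% of the Oat window, 64.3% of that of Glul, and 60.7% and 79.0% of those of Slc25a15, against a median of 52.7%. The Otc window, at 44.3%, matched none of the 8 motifs. These are matches of letters and say nothing about binding.

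**Figure D4:**
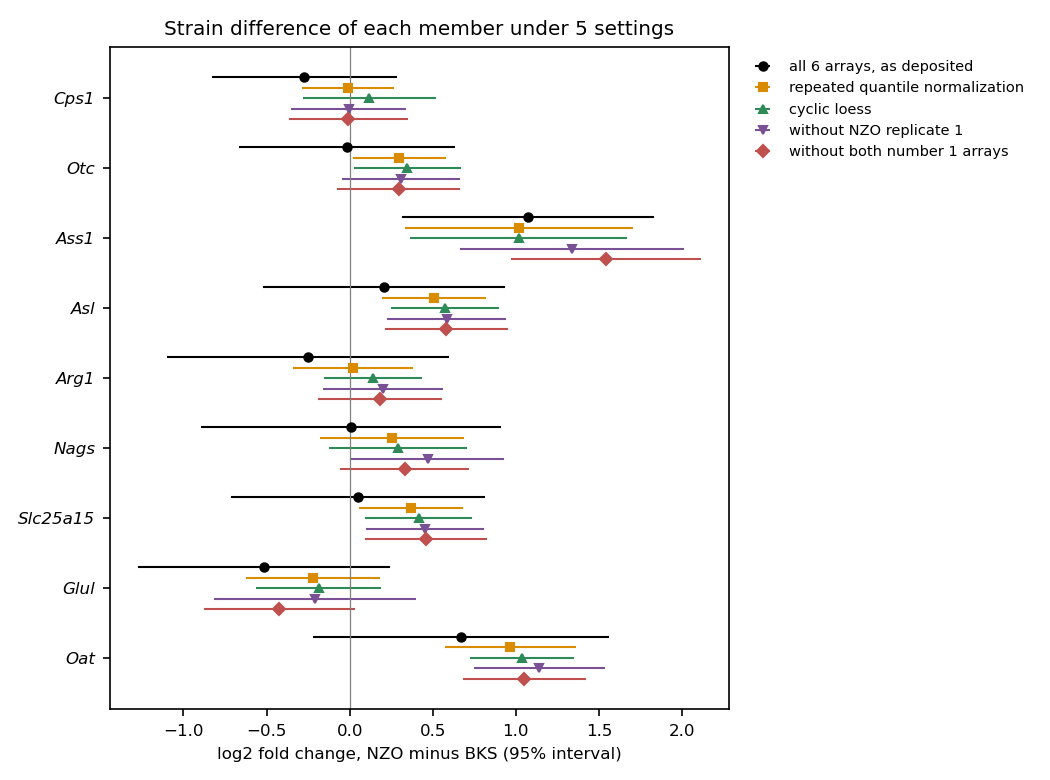
Log2 fold change, NZO minus BKS, of the 9 genes with its 95% interval from limma under 5 settings. With all 6 arrays as deposited every interval but that of Ass1 includes 0; the other 4 settings move Oat to between 0.97 and 1.14 and Asl to between 0.51 and 0.58, while Glul stays below 0.

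Because Oat and Glul had opposite signs, the periportal members were set against each of them. On every NZO array the median of the 7 periportal genes, relative to the BKS mean, lay below Oat and above Glul. The periportal median minus Oat was -0.48, -0.67 and -0.72 in NZO replicates 1 to 3, against 0.18, -0.02 and -0.14 in BKS replicates 1 to 3, without overlap. Minus Glul it was 0.38, 0.42 and 0.88 in NZO, against 0.43, -0.25 and -0.16 in BKS, so here the strains overlapped. These are descriptions with no test, and no share of other genes that separate in this way was computed. The pair was split after its signs were seen, so the gap from Oat is no separate support for a change of Oat. The median log2 fold change of the periportal genes minus the mean of Oat and Glul was -0.07, a value in which the opposite signs of the pair cancel.

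Other zonation genes gave no uniform picture. Of 14 measured periportal markers 0 passed and the median was -0.14. Without the number 1 arrays the median was 0.29, with Etnppl, G6pc and Uroc1 higher and Cdh1 lower past the test, where 5.01% of all genes passed. The adhesion protein Cdh1 had the lowest value, -2.77 (interval -4.05 to -1.49, adjusted p = 0.0895 by limma), with 6.06, 8.03 and 8.28 in NZO against 9.97, 10.35 and 10.36 in BKS. Its adjusted p was 0.000717 without the number 1 arrays (-2.20). The histidine-degrading enzyme Uroc1 was at 1.52 (adjusted p = 0.115, and 0.0131 without the number 1 arrays), with 11.39, 11.04 and 11.57 in NZO against 10.43, 9.14 and 9.87 in BKS. G6pc, which releases glucose from its phosphate, read 11.72, 12.09 and 12.49 in NZO against 11.41, 10.81 and 10.76 in BKS (log2 fold change 1.11, adjusted p = 0.151 by limma, and 0.00558 without the number 1 arrays). None of these 3 genes overlapped between strains, but the most variable probe set of Uroc1 gave a log2 fold change of -0.18. Of all genes, 6.11% had all NZO arrays above all BKS arrays and 10.9% had them all below.

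Of 20 measured pericentral markers 0 passed and the median was -0.28. In 6 of them, Cyp1a2, Notum, Znrf3, Lgr5, Avpr1a and the glutamate transporter Slc1a2, all NZO arrays lay below all BKS arrays, which held for 10.9% of all genes, and in none of the list all above. Znrf3, which dampens Wnt signalling, was at -1.09 (adjusted p = 0.102 by limma, and 0.00625 without the number 1 arrays), and the vasopressin receptor Avpr1a at -1.03 (adjusted p = 0.155). Znrf3 was near the bottom of the scale, with 5.26, 5.32 and 5.04 in NZO against 5.83, 6.55 and 6.50 in BKS. The median over the list was -0.02 without the number 1 arrays. With those arrays left out Cyp1a2, Notum, Slc1a2 and Znrf3 were lower and Axin2 and the ammonia channel Rhbg higher past the test, where 5.01% of all genes passed.

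In the Wnt and beta-catenin list, whose pathway is known to set pericentral expression of Glul, 0 of 14 measured genes passed and the median was -0.12. Apc, which promotes the breakdown of beta-catenin, was at -0.94 (adjusted p = 0.133 by limma), and the transcription factor Tcf7l2 at -0.47 (adjusted p = 0.351). Both, and Ctnnb1 (-0.42, adjusted p = 0.536), were lower on every NZO array than on any BKS array, as were 10.9% of all genes. Of the 14 genes 6 had a log2 fold change above 0, and the list median was -0.02 without the number 1 arrays.

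Among partners of the urea cycle 0 of 12 genes passed, with a median of -0.05. Slc25a13, the carrier citrin that supplies the cycle with aspartate, read 10.72, 11.80 and 11.68 in NZO, against 9.92, 10.44 and 10.91 in BKS. Its log2 fold change was 0.98 (adjusted p = 0.352 by limma). It passed without the number 1 arrays (1.07, adjusted p = 0.0251) and with repeated quantile normalization (1.26, adjusted p = 0.0137). Sirt5, a mitochondrial deacylase that acts on Cps1, was at -0.52 (adjusted p = 0.557).

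Of 27 measured genes of glutamine and glutamate metabolism 0 passed, with a median of -0.10. Got1, the cytosolic aspartate aminotransferase, read 11.74, 13.12 and 13.25 in NZO, against 11.43, 11.03 and 11.60 in BKS, without overlap (log2 fold change 1.35, adjusted p = 0.252 by limma). It passed without the number 1 arrays (1.87, adjusted p = 0.00436) and with repeated quantile normalization (1.68, adjusted p = 0.0108). Slc1a2, which takes up glutamate in the pericentral cells that hold Glul, read 7.24, 7.72 and 7.37 in NZO, against 7.93, 8.39 and 8.53 in BKS. All NZO values were the lower ones (log2 fold change -0.84, adjusted p = 0.182, and 0.0324 without the number 1 arrays).

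In ornithine, polyamine and arginine use 0 of 15 measured genes passed, with a median of -0.03. Ddah1, which breaks down methylated arginines, was at -1.08 (adjusted p = 0.340 by limma) and the spermidine synthase Srm at -0.74 (adjusted p = 0.449). Odc1, the ornithine decarboxylase, was at 0.57 (adjusted p = 0.536) and passed without the number 1 arrays (0.76, adjusted p = 0.0464). It was chosen for mention after its values were seen.

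Of 115 genes in the 7 surrounding pathway lists 1 passed over the 6 arrays, a share of 0.870% beside 0.742% of all genes, and it was among the regulators of urea cycle genes. Foxa1, a transcription factor of liver development, fell to 8.52, 8.03 and 8.13 in NZO replicates 1 to 3, against 10.07, 10.77 and 9.93 in BKS replicates 1 to 3. The log2 fold change was -2.03 (standard error 0.26, adjusted p = 0.0206 by limma), and the strains were far apart on all arrays. Of 15 measured regulators 1 fell and 0 rose, with a median of -0.38 and 1 gene above 0, where 44.9% of all genes were above 0. Most of these regulators had means between 8 and 12. At that level the median over all genes was -0.29 for means of 8 to 10 and -0.33 for means of 10 to 12. A median this far below 0 was thus not particular to the regulators. Their median was -0.07 without the number 1 arrays. Foxa1 lost the call without any 1 BKS array or without NZO replicate 2 or 3 (adjusted p between 0.0519 and 0.133), with the log2 fold change between -2.19 and -1.77. Foxa2 was at -0.94 (adjusted p = 0.0980 by limma), with all NZO arrays below all BKS arrays, as in 10.9% of genes. It passed as lower with array weights (7.13% of genes passed) and with the number 1 arrays as a block (adjusted p = 0.0225). Hnf4a was at -0.39 (adjusted p = 0.576) but passed as higher with its most variable probe set.

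**Figure D5:**
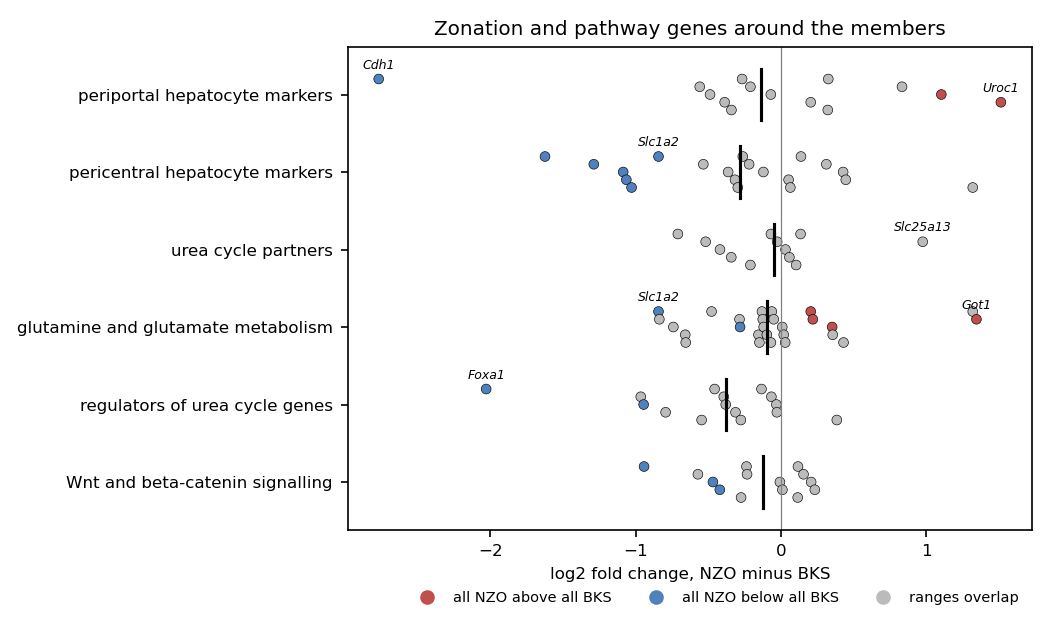
Log2 fold change, NZO minus BKS, of each measured gene in 6 of the surrounding lists (1 symbol per gene, spread vertically for legibility only), with the list median as a line and colour for whether the 3 NZO and 3 BKS values overlap. In the pericentral list 6 genes lie wholly below and none wholly above; Foxa1 stands at -2.03.

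Markers of the cell types that whole liver can hold were read beside these values, and 0 of 50 measured marker genes passed over the 6 arrays. Without the number 1 arrays, a setting in which Oat, Ass1 and Slc25a15 1420966_at passed, 6 were higher and 1 lower past the test, 14.0% of the 50 where 5.01% of genes passed. The higher ones were the endothelial Pecam1 (0.83, adjusted p = 0.0276 by limma), Stab2 (1.05, 0.0489) and Fcgr2b (0.99, 0.0232), the Kupffer cell gene Vsig4 (1.96, 0.00304), and the stellate cell genes Dcn (1.27, 0.0129) and Lrat (0.71, 0.0465). The lower one was the pancreas gene Cela1 (-1.28, 0.0100). The median log2 fold change of the endothelial list was 0.83 there and 0.40 over the 6 arrays, and that of the Kupffer list 0.50 there and -0.02 over the 6 arrays. The median of the stellate list was 0.12 there and 0.07 over the 6 arrays, with Reln at -0.42 there. Lrat was near the bottom of the scale, with a mean of 5.61 over the 6 arrays. With all 6 arrays kept, repeated quantile normalization gave calls for Stab2 (1.06, adjusted p = 0.0150 by limma) and the red blood cell gene Alas2 (0.81, 0.0446). There 2.31% of genes passed. Cyclic loess called both as well (Stab2 1.10, 0.0179, and Alas2 0.84, 0.0465), where 2.36% passed. Calls over all 50 markers were not counted in these settings. As deposited, the mean of 5 hepatocyte markers was 13.5, 14.6 and 14.6 in NZO replicates 1 to 3, against 14.5 to 14.6 in BKS, so that NZO replicate 1 was again the low one. Apoa1 was at -0.52 and Ttr at -0.38. The 7 liver endothelial markers averaged 6.98 to 7.73 in NZO, against 6.64 to 6.96 in BKS, with all 7 log2 fold changes above 0 and Stab2 at 0.92 and Pecam1 at 0.71. The 7 Kupffer cell markers averaged 7.38 to 8.12 in NZO and 7.31 to 8.21 in BKS (Vsig4 1.08, Marco -0.30), and the 7 stellate cell markers 7.71 to 8.09 in NZO and 7.55 to 8.15 in BKS (Lrat 0.56, Reln -0.47). Averages lay between 5.93 and 6.49 in NZO and 5.92 and 6.03 in BKS for 4 cholangiocyte markers (Epcam 0.73, Sox9 0.14). They were 5.32 to 5.50 in NZO and 5.18 to 5.27 in BKS for 5 lymphocyte markers (Cd3e 0.31, Cd3g 0.17), and 5.12 to 5.40 in NZO and 4.94 to 5.28 in BKS for 4 adipocyte markers (Plin4 0.33, Lep 0.20). Epcam was high on NZO replicate 1 alone, with 9.78, 7.07 and 7.29 in NZO replicates 1 to 3, against 7.73, 7.07 and 7.15 in BKS. Without the number 1 arrays its log2 fold change was 0.07. The 3 red blood cell markers averaged 6.36 to 6.90 in NZO and 6.37 to 6.48 in BKS (Alas2 0.54, Hba-a1 0.14). Those of pancreas, also 3, averaged 6.86 to 6.99 in NZO and 6.92 to 7.45 in BKS (Cela1 -1.08, Ins2 0.23), and the 5 of skeletal muscle 4.95 to 5.04 in NZO and 4.95 to 5.17 in BKS (Mylpf -0.30, Acta1 0.16). RMA values have no true zero, so none of these markers can be called absent. Their part in the member values was not tested.

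The genes whose levels ran most like those of Cps1 and Glul over the 6 arrays were found by Pearson r among 9336 genes with a mean of at least 6. For Cps1 these were Serpina1c, Arfgap2 and Mtmr3, each with r of 0.999. For Glul they were Arl1, Tsg101 and Tax1bp1, all with r of at least 0.999 when rounded. Such values were common, with r over 0.9 in 1323 genes for Cps1 and 1784 for Glul, and the 6 points share the low NZO replicate 1.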

How the data were processed

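Liver RNA of 6 samples was hybridised to a 3′ expression array (8 ug of total RNA per labelling, per the labels' protocols). The authors deposited log2 values per probe set, and per the submitters' processing notes the tools were RMA and Affymetrix Expression Console. Versions are not given in the sources used here. There is no detection call, and array number limits precision.

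Arrays were grouped by the strain label, with replicates numbered in accession order. Probe sets were named from GEO's platform annotation where it gave 1 symbol: 34945 had 1, 932 several and 9160 none, and 64 controls were left out. For a gene with several probe sets, the one brightest on average stood for it (18193 genes). Strains were compared with limma 3.58.1 (R 4.3.3; lmFit, eBayes, two-sided, no covariate), adjusted by Benjamini-Hochberg over all genes or over all 45037 probe sets. No set test was run, and lists are given as counts and medians beside those of all genes. On simulated data with 18193 genes in 3 against 3 arrays, 40% of changes of 1 and 99% of changes of 2 on the log2 scale were recovered, with 12 false calls among 151. The simulated noise was independent between genes and held no shift shared by a whole array, such as the low signal of NZO replicate 1. These shares therefore do not give the power of the test on the real arrays.

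Members and lists were chosen with earlier results of these data known. The text names all members, up to 4 genes per list past the test or otherwise the 2 with the smallest p, the 3 genes most like Cps1 and Glul, and all genes of counts of 5 or fewer. Alternatives changed normalization, the dim-gene filter, probe set choice, variance model, array weights and arrays. No 2 arrays were identical. Figures used matplotlib 3.10.9 in Python 3.11.15.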

Additional observations from a re-analysis of the deposited data

How the results depend on the processing

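Of 18 alternatives, 17 gave a test. Members past the test as higher numbered 0 as reported, and 1 with repeated quantile normalization or cyclic loess, 2 with array weights or without both number 1 arrays, and 0 to 1 with 1 array left out; none passed as lower. Member probe sets past the test as higher numbered 2 with repeated quantile normalization, cyclic loess or array weights, 1 with a robust trend or the number 1 block, 3 without the number 1 arrays and 0 to 1 with 1 array left out, and 1 passed as lower with the block. In the surrounding lists, 0 higher and 1 lower became 5 and 4 with repeated quantile normalization, 7 and 4 with cyclic loess, 1 and 3 with the most variable probe set, 8 and 11 with array weights, 6 and 13 with the block, and 8 and 6 without the number 1 arrays. There, only the lower count moved, to 2, with genes of mean at least 6, and to 3 with a robust trend; with 1 array left out the counts were 0 to 1 and 0 to 3. Over all genes 59 higher and 76 lower became 192 and 229 with repeated quantile normalization, 208 and 221 with cyclic loess, 399 and 899 with array weights, 275 and 917 with the block, 363 and 549 without the number 1 arrays, 121 and 160 with a robust trend and 89 and 134 with the most variable probe set; with 1 array left out they were 10 to 150 and 14 to 108. The periportal minus pericentral difference of -0.07 was 0.082 with the most variable probe set, -0.66 without _a_at, _s_at and _x_at probe sets (which drops Glul), 0.038 with array weights, -0.25 between the number 1 arrays and from -0.15 to 0.044 with 1 array left out.

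Several members near 0 changed sign without a call. Cps1 was 0.12 with cyclic loess. Otc was 0.30 with repeated quantile normalization, 0.35 with cyclic loess, 0.19 with array weights (0.15 over probe sets) and 0.30 without the number 1 arrays, and from -0.22 to 0.31 with 1 array left out; its probe set 1436615_a_at ran from -0.66 to 0.059. Arg1 was 0.020, 0.14, 0.042 and 0.18 under the same 4, and from -0.52 to 0.20 with 1 array left out. Nags was -0.055 and Slc25a15 -0.010 with equal array medians, and with 1 array left out they ran from -0.24 to 0.47 and from -0.15 to 0.45, and Asl from -0.018 to 0.58. Uroc1 was -0.18 with the most variable probe set and Ttr 0.028 with cyclic loess, and Epcam ran from -0.13 to 1.22 with 1 array left out. The causes of these sign changes were not tested. The low signal of NZO replicate 1 was described above but was not tested as a cause either. No paired analysis was possible because the titles of the 2 strains share only the number 1.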
